A study of Mus musculus with 2 samples.

Results

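Antigen-presenting cells and tumor cells display ligands that raise or restrain T cells and phagocytes, and 10 mouse genes of this kind were described here by their mRNA level, namely Cd274, Pdcd1lg2, Cd80, Cd86, Cd40, Icosl, Havcr2, Lgals9, Cd276 and Cd47. They were chosen by name, and each was found on 1 line of both deposited RPKM tables, so that 10 of 22886 genes were taken. RPKM are reads scaled to transcript length and library size, so levels of different genes can be compared per length. The 2 libraries were made from polyA RNA of sorted cells, which the labels call aerobic tumor cells, from subcutaneous LLC (Lewis lung carcinoma) tumors in wild type C57BL/6 mice. One group of mice was injected with vehicle and the other with clodronate, a compound known for killing macrophages when given in liposomes, and each group gave 1 library. Age, dose, time, the number of mice pooled and the marker of aerobic cells are not given in the sources used here, and the growth protocol of the labels names EML cells, a blood progenitor line, against the other labels.

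CD80 and CD86 on the surface of an antigen-presenting cell bind CD28, which costimulates T cells, and CTLA-4, which restrains them. PD-L1 (Cd274) and PD-L2 (Pdcd1lg2) bind the inhibitory receptor PD-1, ICOS ligand (Icosl) binds ICOS, and CD40 is the receptor through which helper T cells activate macrophages and dendritic cells. TIM-3 (Havcr2) is an inhibitory receptor carried by T cells and by myeloid cells, galectin-9 (Lgals9) is one of its described ligands, B7-H3 (Cd276) is a B7 family protein found on many tumor and stromal cells, and CD47 is the signal to SIRPα (Sirpa) on macrophages that limits phagocytosis.

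The promoters of 4 members are shown because their genes carry the contrasts described next. Cd274 and Pdcd1lg2 are neighbours with values lower by a like share, although Pdcd1lg2 rests on only an estimated 58 and 33 reads. Cd276 had the widest gap on the higher side, and Lgals9 was the most abundant. Each sequence is the 250 bases before the RefSeq start on the gene's own strand (GRCm38.p6), at chr19:29367188-29367437 (+) for Cd274, chr19:29410669-29410918 (+) for Pdcd1lg2, chr9:58555034-58555283 (-) for Cd276 and chr11:78984925-78985174 (-) for Lgals9. Capitals mark a match to a searched motif.
Cd274: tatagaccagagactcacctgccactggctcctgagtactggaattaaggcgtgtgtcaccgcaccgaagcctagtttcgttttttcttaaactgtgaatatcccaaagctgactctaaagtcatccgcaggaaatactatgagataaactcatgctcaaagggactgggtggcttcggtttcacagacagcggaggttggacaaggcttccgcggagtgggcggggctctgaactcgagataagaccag
Pdcd1lg2: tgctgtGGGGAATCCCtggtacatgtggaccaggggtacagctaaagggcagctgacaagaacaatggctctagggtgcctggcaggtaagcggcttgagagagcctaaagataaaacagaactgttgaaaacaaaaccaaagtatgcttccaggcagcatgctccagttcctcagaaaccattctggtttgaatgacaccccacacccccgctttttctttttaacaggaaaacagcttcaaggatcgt
Cd276: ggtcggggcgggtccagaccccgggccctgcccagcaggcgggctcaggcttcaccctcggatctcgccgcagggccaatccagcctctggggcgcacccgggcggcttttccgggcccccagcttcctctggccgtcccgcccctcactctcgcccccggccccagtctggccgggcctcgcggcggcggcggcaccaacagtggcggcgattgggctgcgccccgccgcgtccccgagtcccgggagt
Lgals9: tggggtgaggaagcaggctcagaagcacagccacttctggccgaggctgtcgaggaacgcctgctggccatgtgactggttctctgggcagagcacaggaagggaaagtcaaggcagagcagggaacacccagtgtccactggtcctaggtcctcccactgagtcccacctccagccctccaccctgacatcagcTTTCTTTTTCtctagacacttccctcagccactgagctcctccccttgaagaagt
The motifs searched on both strands were the interferon gamma activated site GAS (TTCNNNGAA), the core of the interferon-stimulated response element ISRE and the NF-kB site. The RefSeq table held a window for 8 of the 10 members, and Cd86 and Cd40 had none. GAS was found in 0 of the 8 windows and in 7.11% of the 27025 genes with a window. The ISRE core was found in 1 window, that of Lgals9, and in 3.06% of all genes, and the NF-kB site in 1 window, that of Pdcd1lg2, and in 3.76% of all genes. No match overlapped another. A match is a stretch of letters and not evidence of binding. The windows also differed in composition. That of Cd276 had a GC content of 77.6% and 29 CpG pairs and that of Cd47 73.2% and 30, against 44.8% and 2 for Havcr2 and a median of 52.0% and 5 over all genes.

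The RPKM summed to 601579 in the vehicle and 596143 in the clodronate library. At low values, RPKM multiplied by transcript length less a fitted offset fell mostly on whole multiples of 1 step. The step corresponds to about 13.7 M reads with vehicle and 11.1 M reads with clodronate (M, per 1e6). Of the values below about 10 steps, 75.5% lay within 3% of a whole multiple in each library, where 25.4% and 26.3% would by the width of these windows. These widths hold for a step fixed beforehand. Step and offset were searched for the best agreement, so the contrast overstates the support for the step. The reads behind a member were estimated with this step, and the 95% intervals given here cover counting error only. With 1 library per condition there was no replicate check and no test. Markers of macrophages were high in both libraries, with 14 of 14 at 10 RPKM or more. Their summed level was 28115 RPKM with vehicle and 26412 RPKM with clodronate, but 8 were higher and 6 lower with clodronate. The sum depends on C1qc, with 3984 RPKM with vehicle and 2043 RPKM with clodronate. C1qa had 1185 and 1563 RPKM and C1qb 3372 and 3384 RPKM. The labels name tumor cells of a carcinoma. Of 8 epithelial markers, 4 (Epcam, Krt19, Cldn4 and Esrp1) were given as 0 with either injection, and the highest was Cdh1 with 6.14 and 6.44 RPKM. Whether LLC cells carry these markers was not tested. No counts were given, so a 0 is only what is listed. Of 113 loci of ribosomal proteins and proteasome subunits 0 were at 0 in either library. Such genes are abundant in most cells, so this does not show whether a 0 at a low gene is real.

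The members spanned a wide range of levels, and most of them were abundant. Lgals9 had 249 RPKM with vehicle and 226 RPKM with clodronate. At the other end Pdcd1lg2 had 2.94 and 2.05 RPKM, so that the highest member exceeded the lowest 84.8-fold in the vehicle and 111-fold in the clodronate library. Genes that averaged 1 RPKM or more are called expressed here, and these were 10982 genes with all 10 members among them. Lgals9 had a level at or above those of 96.7% of expressed genes with vehicle and 96.4% with clodronate. Cd47, Cd86, Havcr2, Cd80 and Cd274 followed in this order in both libraries, then Cd40. Icosl, Cd276 and Pdcd1lg2 came last in the vehicle library, and in the clodronate library Cd276 stood above Icosl, which was the 1 change in the order. No replicate spread was at hand to say which neighbours in the order differ.

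**Figure D1:**
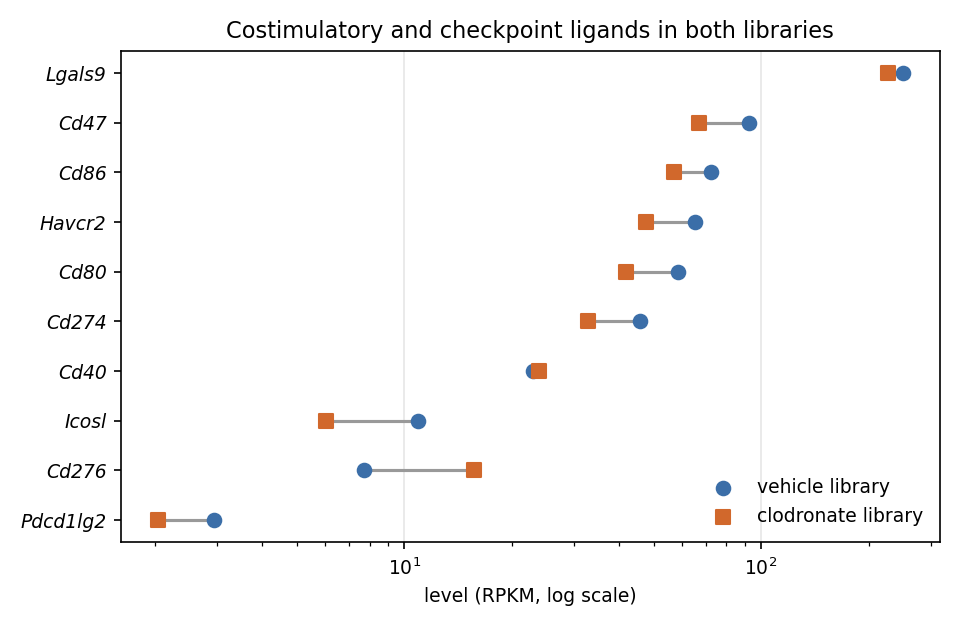
Level of each member in RPKM, on a log scale, in the vehicle library (circles) and the clodronate library (squares), 1 library each, with a grey line joining both. Lgals9 stands at 249 and 226 RPKM and Pdcd1lg2 at 2.94 and 2.05 RPKM, and the square lies to the left of the circle for 8 of the 10 genes.

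Of the 10 members 8 were lower in the clodronate library and 2 were higher, namely Cd276 and Cd40, whose small ratio turned to the lower side when the libraries were scaled to the same upper quartile. The log2 ratio of clodronate RPKM + 1 over vehicle RPKM + 1 had a median of -0.41 over the members and of 0.019 over all expressed genes, of which 48.4% were lower. This scale understates the difference of genes with low values. No member was as much as 3-fold higher on this scale, as 2.86% of all expressed genes were, and none was 3-fold lower, as 2.32% were. At 2-fold, 0 of 10 were past the threshold in either direction, against 6.95% of all genes higher and 6.77% lower. Cd276 lay at this threshold, with a plain ratio of 2.04 and a log2 ratio of 0.94 that became 1.02 with a pseudocount of 0.1 RPKM. In these bulk libraries fewer cells of a type and less RNA per cell cannot be told apart.

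**Figure D2:**
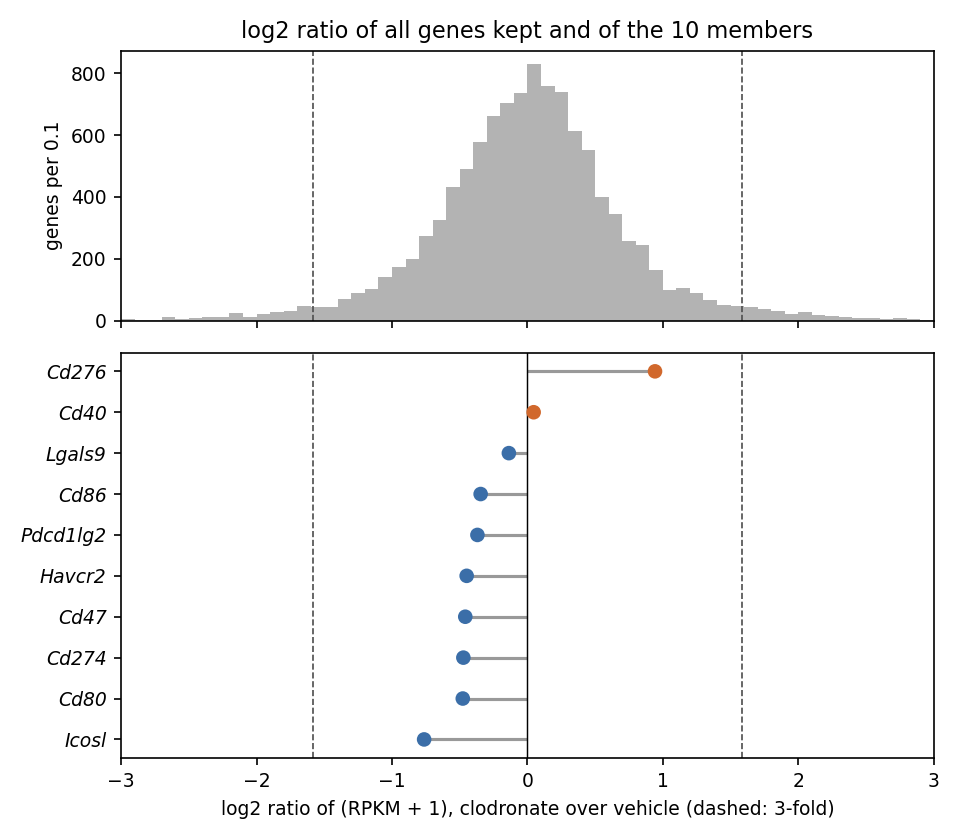
Upper panel, number of genes per 0.1 of log2 ratio of (RPKM + 1), clodronate over vehicle, for the expressed genes (average of 1 RPKM or more). Lower panel, the same ratio for each member, from -0.76 for Icosl to 0.94 for Cd276, all between the dashed lines at 3-fold.

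The PD-1 ligands were lower in the clodronate library by a like share. Cd274 had 45.8 RPKM with vehicle and 32.7 RPKM with clodronate, a log2 ratio of -0.47. The plain ratio of clodronate over vehicle was 0.714, with a counting interval from 0.666 to 0.766 on an estimated 2140 and 1245 reads. Pdcd1lg2 had 2.94 and 2.05 RPKM and a plain ratio of 0.697. It rested on an estimated 58 and 33 reads, and its counting interval, from 0.455 to 1.07, included no difference. The level of Cd274 was 15.6 times that of Pdcd1lg2 in the vehicle and 16.0 times in the clodronate library.

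Ligands of CD28 and ICOS were lower as well. Cd86 had 72.5 RPKM with vehicle and 56.9 RPKM with clodronate, a plain ratio of 0.784 with a counting interval from 0.735 to 0.837. Cd80 had 58.5 and 41.8 RPKM, a plain ratio of 0.714 with an interval from 0.650 to 0.783. Corrected for the GC content and length of transcripts, the log2 ratio of Cd86 went from -0.35 to -0.19 and that of Cd80 from -0.48 to -0.30. With vehicle Cd86 was at or above 90.0% of expressed genes and Cd80 at or above 87.6%. Icosl showed the widest gap among the lower members, with 10.9 and 6.04 RPKM, a log2 ratio of -0.76 and a plain ratio of 0.552, whose counting interval ran from 0.462 to 0.659. Of all genes, 11.1% had a lower log2 ratio than Icosl.

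Cd40 was the member with the smallest uncorrected difference. It had 23.0 RPKM with vehicle and 23.8 RPKM with clodronate, a log2 ratio of 0.046 (-0.014 with libraries scaled to the same upper quartile), and the counting interval of the plain ratio, from 0.923 to 1.16, included no difference. The locus joins 4 RefSeq transcripts of different length, so its reads could only be placed between 145 and 876 in the vehicle library, and the interval is approximate.

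Havcr2 and its ligand differed in the size of the gap. Havcr2 had 65.3 RPKM with vehicle and 47.6 RPKM with clodronate, a plain ratio of 0.729 with an interval from 0.681 to 0.780. Lgals9 had a plain ratio of 0.909 with an interval from 0.870 to 0.950, the smallest difference among the 8 lower members. Cd47 had 92.5 and 67.0 RPKM and a plain ratio of 0.725, with an interval from 0.696 to 0.754 on an estimated 6391 and 3769 reads. Cd274, Pdcd1lg2, Cd80, Cd86, Havcr2 and Cd47 lay between 0.697 and 0.784 on the plain ratio. Their levels ranged from 2.94 to 92.5 RPKM in the vehicle library. The counting interval of Pdcd1lg2, from 0.455 to 1.07, was wider than this range of ratios. A lower log2 ratio than theirs was found for 20.5% (Cd80) to 26.9% (Cd86) of all expressed genes. These 6 were grouped after their values were seen.

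Cd276 went the other way. It had 7.71 RPKM with vehicle and 15.7 RPKM with clodronate, a log2 ratio of 0.94 and a plain ratio of 2.04, with a counting interval from 1.79 to 2.33 on an estimated 359 and 596 reads. A higher log2 ratio was found for 7.79% of all genes. Cd274 exceeded Cd276 5.93-fold in the vehicle and 2.08-fold in the clodronate library. Lists of cells known to carry B7-H3 did not share 1 direction. The summed level of 6 fibroblast markers was 154 RPKM with vehicle and 75.1 RPKM with clodronate. Most of it came from Dcn with 77.3 and 28.4 RPKM and Col3a1 with 62.1 and 34.4 RPKM. Of the 6, 5 were lower and 1 was higher, Col1a1 with 2.32 and 5.40 RPKM. The sum of 6 endothelial markers was 2.37 and 7.40 RPKM, with Tek, Emcn and Cldn5 at 0 in both. That of 8 epithelial markers was 13.6 and 11.4 RPKM. The part of these cells in the level of Cd276 was not tested.

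The base composition of the transcripts moved with the ratios. Over all genes the median log2 ratio ran from -0.24 in the lowest of 10 bins of GC content to 0.29 in the highest. Cd276 had the highest GC content of the members, 56.2%, and Cd47 the lowest, 42.2%. After the medians of bins of GC content and then of transcript length were subtracted, 8 members were lower and 2 higher, with a median of -0.28. Cd276 had 0.70, Icosl -0.86 and Cd274 -0.42, while Lgals9 had -0.046 in place of -0.14 and Cd40 0.10. The correction narrowed the gap of Cd276 and of the lower members other than Icosl, and widened those of Icosl and Cd40.

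**Figure D3:**
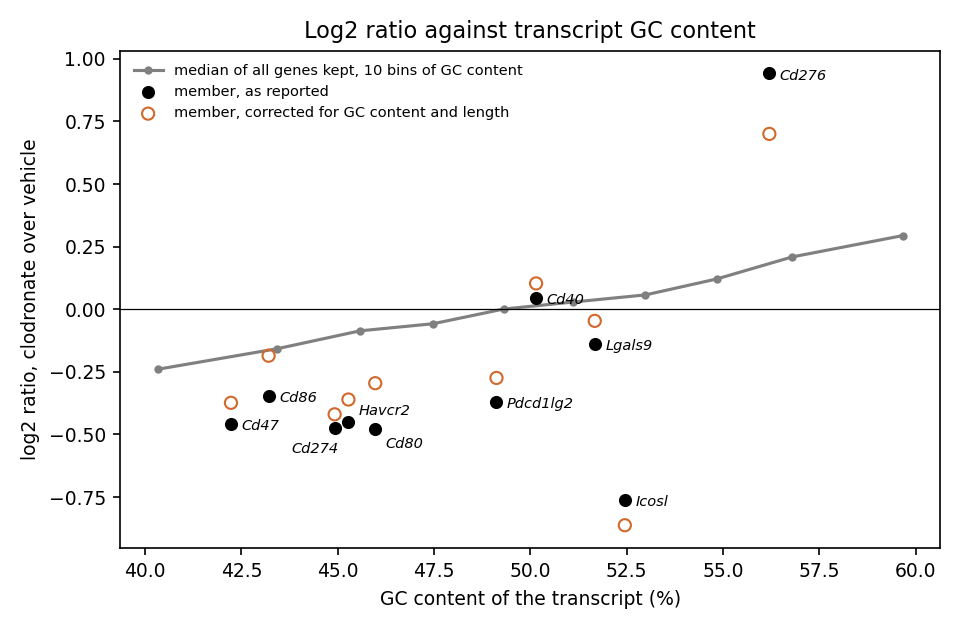
Log2 ratio of each member, clodronate over vehicle, against the GC content of its transcript in percent. Filled points are as reported, open points are corrected for GC content and length, and the grey line joins the medians of all genes in 10 bins of GC content, from -0.24 to 0.29. Cd276 lies at 56.2% GC with 0.94 before and 0.70 after the correction.

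Genes of the interferon gamma path, which is known to induce Cd274, lay on both sides. Of 10 genes on this list, all expressed, 6 had higher and 4 lower values with clodronate, near the 48.4% lower among all expressed genes. The median log2 ratio of the list was 0.27, and 0.15 once corrected for GC content and length as above. The 4 lower genes were those of the receptor chains and their kinases, a division made after the values were seen. Once corrected, their log2 ratios were -0.038 for Ifngr1, -0.31 for Ifngr2, -0.099 for Jak1 and -0.62 for Jak2. Ifngr1 had 102 RPKM with vehicle and 95.9 RPKM with clodronate, Ifngr2 89.6 and 73.6 RPKM, Jak1 48.1 and 45.3 RPKM and Jak2 19.9 and 11.8 RPKM. The higher ones were transcription factors and feedback inhibitors. Stat2, which serves the type I interferons, had 20.4 RPKM with vehicle and 32.4 RPKM with clodronate. Socs1, a feedback inhibitor, had 0.714 and 3.15 RPKM, a log2 ratio of 1.28, and was counted as expressed through the clodronate library alone. Irf1, which binds the Cd274 promoter in other cells, had 55.9 and 64.1 RPKM. Higher interferon genes in the clodronate library were known from earlier work on these files and are no independent support.

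Genes of CD40 signalling, with the NF-kB genes Nfkb2 and Relb among them, lay on both sides. Of 11 genes, 7 were higher and 4 lower, the median log2 ratio was 0.11 and none was past 2-fold. Traf1 had 9.27 RPKM with vehicle and 13.9 RPKM with clodronate, and Traf5 was lower by about as much, with 9.83 and 6.52 RPKM. Nfkb2 had 50.7 and 67.7 RPKM, a log2 ratio of 0.41 that became 0.073 once corrected for GC content and length. The gene of the CD40 ligand, Cd40lg, was listed at 0 in both libraries.

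The CD47 receptor was abundant and most receptors of T cells were low. Sirpa, the macrophage receptor of CD47, had 264 RPKM with vehicle and 321 RPKM with clodronate, so that Sirpa exceeded Cd47 2.86-fold and 4.79-fold. These levels are uncorrected. Corrected for GC content and length, the log2 ratio of Sirpa went from 0.28 to 0.16 and that of Cd47 from -0.46 to -0.37. Of 13 receptors of T cell costimulation and restraint, 4 were expressed (Lag3, Tigit, Tnfrsf4 and Tnfrsf9), and these had lower values with clodronate, Lag3 being counted as expressed through the vehicle library alone. Tigit had 14.0 and 7.14 RPKM and Lag3 2.66 and 0.790 RPKM. Below the limit, receptors went both ways. Some were listed at 0 with vehicle and had values with clodronate, with Cd226 at 1.19, Cd27 at 0.712, Pdcd1 at 0.618 and Tnfrsf18 at 0.444 RPKM. Others were lower with clodronate. Btla had 1.46 RPKM with vehicle and 0.088 RPKM with clodronate, and Cd28 had 0.476 and 0.022 RPKM. Icos had 0.785 and 0.466 RPKM and Ctla4 0.126 and 0 RPKM. Over the whole series, 13103 genes were above 0 with vehicle and 13728 with clodronate. Of 7 genes that handle these proteins, 4 were higher and 3 lower. Their median log2 ratio of 0.018 became -0.016 once corrected for GC content and length. Cmtm6, which keeps PD-L1 at the cell surface, had 28.8 and 29.2 RPKM, and Qpctl, the enzyme that modifies CD47 for binding to SIRPα, had 7.99 and 7.08 RPKM.

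Ligands outside the 10 members lay on both sides. Of the 9 TNF family genes, 2 were expressed, and both had higher values with clodronate. They were Tnfsf9, a costimulatory ligand, with 19.9 and 35.1 RPKM, and Tnfrsf14, the ligand of BTLA, with 35.9 and 47.9 RPKM. Vsir, the gene of the B7-like checkpoint protein VISTA, had 82.7 and 80.0 RPKM. Btnl2 was the only other of 6 B7-like genes that was expressed, with 1.14 and 2.18 RPKM. Of 13 other checkpoint genes 10 were expressed, 4 higher and 6 lower. Their median log2 ratio of -0.065 became 0.084 once corrected for GC content and length. Ceacam1, a described ligand of TIM-3, had 21.2 and 32.2 RPKM, Cd24a, a phagocytosis checkpoint like CD47, had 20.3 and 13.1 RPKM, and Pvr, the ligand of TIGIT, had 43.9 and 44.3 RPKM.

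Among 8 other genes of the galectin list, 5 were expressed, with a median log2 ratio of 0.041. Lgals1 had 1057 RPKM with vehicle and 1555 RPKM with clodronate, whereas Lgals8 had 39.4 and 19.6 RPKM and Lgals3 677 and 656 RPKM. The small difference of Lgals9 thus lay between those of Lgals8 and Lgals1. No other gene of the 3 on the Tim family list was expressed. Timd2 and Havcr1 were listed at 0 in both libraries, and Timd4 in the vehicle library.

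**Figure D4:**
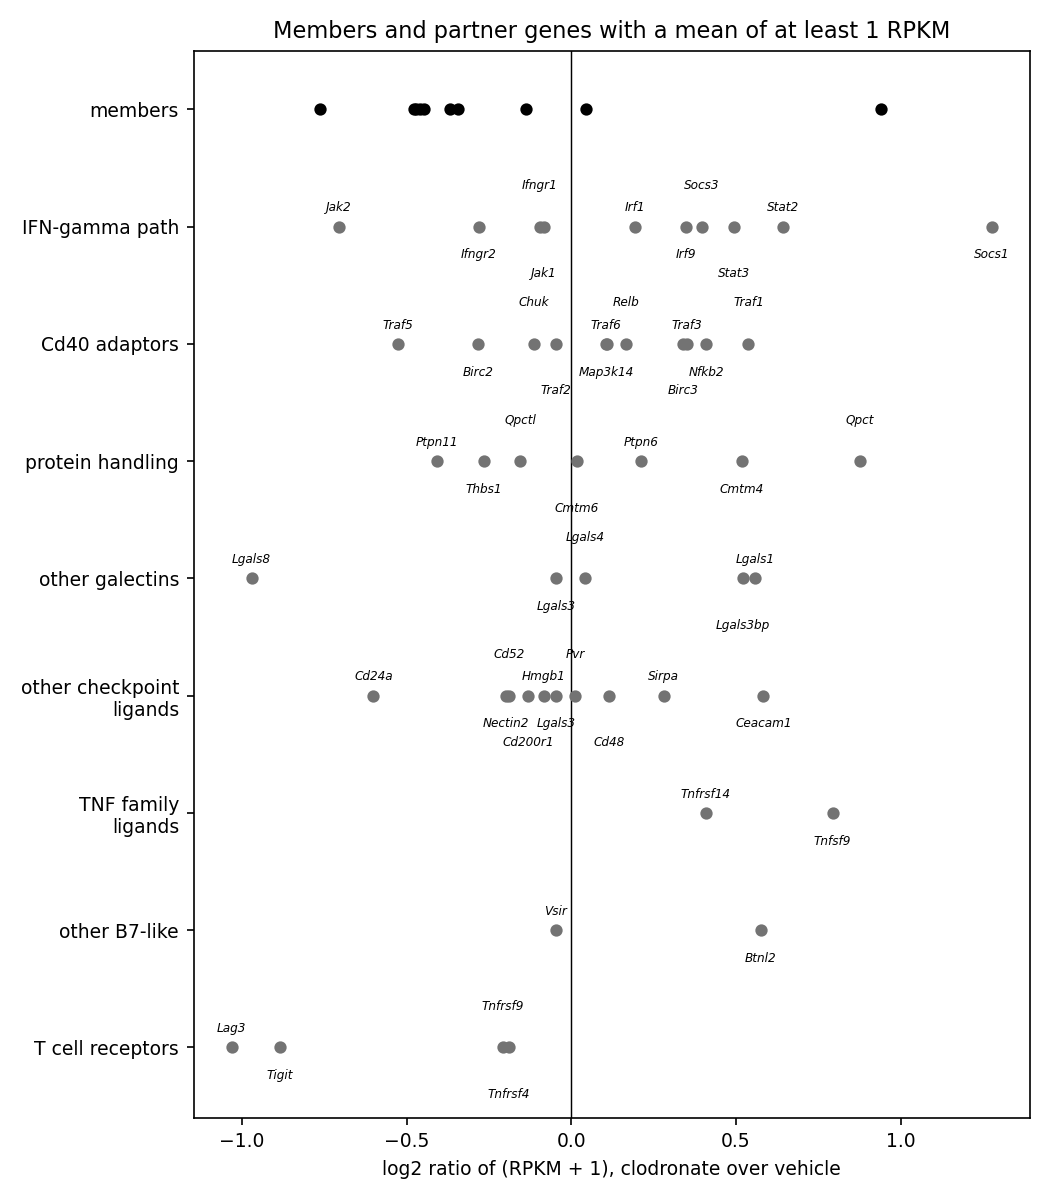
Log2 ratio of (RPKM + 1), clodronate over vehicle, of the members (black) and of each gene of 8 partner lists (grey) that was expressed (average of 1 RPKM or more), 1 point a gene and 1 list a row. The members lie mostly left of 0, with a median of -0.41, and the interferon gamma path on both sides, with a median of 0.27. Lgals3 stands in the galectin row and among the checkpoint ligands.

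Markers of dendritic cells and lymphocytes were low beside those of macrophages. Of 12 dendritic cell markers 7 were expressed, 4 higher and 3 lower, and the summed level of all 12 was 32.8 RPKM with vehicle and 37.8 RPKM with clodronate. Batf3 was listed at 0 with vehicle and reached 5.77 RPKM with clodronate, so it was counted as expressed through the clodronate library alone. Cd209a had 1.25 and 8.68 RPKM. The 3 lower ones were Ccr7 with 3.36 and 2.31 RPKM, Fscn1 with 5.45 and 2.35 RPKM and Ccl22 with 18.0 and 14.2 RPKM, while Cacnb3 had 2.18 RPKM with vehicle and a log2 ratio of 0.0095. The part of dendritic cells in the levels of the members was not tested. Flt3 was listed at 0 in the vehicle library. Of 7 B cell markers Pax5 and Cr2 were at 0 in both, and the sum was 4.84 and 2.42 RPKM. Of 10 T and NK cell markers Cd3e, Cd3g and Ncr1 were listed at 0 in both, and the sum was 3.65 and 13.1 RPKM, of which Cd2 gave 2.39 and 11.1 RPKM. Of the 7 neutrophil markers found, S100a9, Retnlg, Camp and Ngp were listed at 0 in both, and the sum was 42.1 and 43.3 RPKM. Most of this sum came from Csf3r with 26.4 and 19.3 RPKM and S100a8 with 12.7 and 23.1 RPKM. S100a8 thus had values in both libraries although S100a9 was listed at 0. Whether the 0 of S100a9 is real was not tested. The 14 macrophage markers had a median log2 ratio of 0.034, with 8 higher and 6 lower.

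The genes of the PD-1 ligands lay beside other loci with lower values in the clodronate library. In the coordinates of the files (mm9 per the submitters' processing notes), Cd274 lay on chr19:29441928-29462584 and Pdcd1lg2 on chr19:29485409-29547417, 22824 bases further on. Among the 12 loci within 300 kb of Cd274, 8 were expressed. The 6 of them from Rcl1 to Pdcd1lg2 were lower in the clodronate library and the 2 beyond, Ric1 and Ermp1, were higher. Jak2 lay at chr19:29326318-29387570 and had 19.9 RPKM with vehicle and 11.8 RPKM with clodronate. Insl6 had 11.1 and 4.28 RPKM, Plgrkt 11.9 and 7.50 RPKM and Rcl1 5.31 and 2.44 RPKM, while Ric1 had 6.18 and 8.72 RPKM. This stretch was chosen after its values were seen, and 48.4% of all expressed genes were lower in the clodronate library. The counting interval of Pdcd1lg2 included no difference, as given above. A link between position and ratio was not tested.

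**Figure D5:**
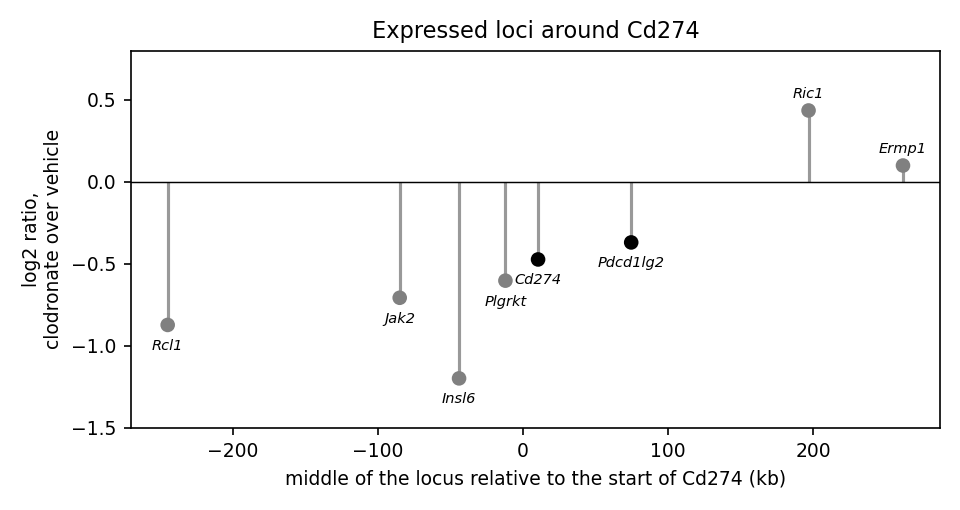
Log2 ratio of (RPKM + 1), clodronate over vehicle, of the 8 expressed loci within 300 kb of Cd274, against the distance in kb of the middle of each locus from the start of Cd274. The 6 loci on the left, from Rcl1 to Pdcd1lg2, lie below 0 and Ric1 and Ermp1 above it.

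The other members lay apart in the genome. In the same build Cd80 was on chr16:38459013-38487014, Cd86 on chr16:36603955-36666163, Cd47 on chr16:49855767-49911796, Havcr2 on chr11:46268433-46294756 and Lgals9 on chr11:78776481-78798426. Cd40 was on chr2:164881136-164897154, Icosl on chr10:77532113-77542270 and Cd276 on chr9:58372107-58388747. No other locus of the files overlapped a member (0 overlapping loci for each of the 10).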

How the data were processed

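RNA sequencing values of 2 libraries, 1 per condition, were used as deposited. Per the labels, the submitters' processing notes name CASAVA 1.8.2, TopHat2 2.0.9, Bowtie 0.12.9, Cufflinks 2.2.1 and Cuffdiff with the build mm9, without parameters or annotation release. The authors deposited RPKM values for 23170 loci in each library, which are not counts, so no count model was used. Where a symbol read as a number (26 loci), the RefSeq accession stood in for it. Lines of 1 symbol were summed, which gave 22886 genes. Log2 ratios used RPKM + 1, and 10982 genes that averaged 1 RPKM or more were kept as expressed. Differences of at least 3-fold were counted. Locus starts were raised by 1, since 6821 locus spans matched RefSeq lengths in this way and 394 without it.

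The value of 1 read was found by a search over steps and over a length offset, 210 nt for the vehicle and 200 nt for the clodronate library, at which most low values lay within 3% of whole multiples. It rests on GENCODE M21 transcripts of the same RefSeq accessions, whose lengths may differ from those the authors used, so read numbers are approximate. GC content and length had a value for 98.7% of the genes kept. Older symbols were matched through RefSeq synonyms (Vsir is listed as 4632428N05Rik, Nectin2 as Pvrl2, Nectin3 as Pvrl3, Adgre1 as Emr1), and Ly6g was not matched. Of the lists, 2 genes are not reported here.

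The members and lists were chosen with earlier results of these data known. All members, and any gene of the partner and marker lists, could be named. The choice of loci around Cd274 came after their values. Alternatives were another pseudocount, other filters, scalings and thresholds, and, for symbols on several lines, the highest line in place of the sum. The correction for GC content and length was chosen after seeing the data. Calls, correction and read estimation were tested on simulated data. Python 3.11.15, numpy 2.4.6, pandas 2.3.3 and matplotlib 3.10.9 were used.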

Additional observations from a re-analysis of the deposited data

How the results depend on the processing

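Of all expressed genes 314 were 3-fold or more higher with clodronate and 255 lower. A pseudocount of 0.1 RPKM changed these to 532 and 480, a minimum average of 5 RPKM to 127 and 101, and a 2-fold threshold to 763 and 744. The count of members past the threshold was 0 in both directions under these and the other alternatives run. The median log2 ratio of the members, -0.41, became -0.28 once GC content and transcript length were corrected for, which was chosen after seeing the data. Of 50 values of single members under the 5 alternatives that can change a ratio, 49 kept their sign. The exception was Cd40, at -0.014 with libraries scaled to the same upper quartile. Cd276 ran from 0.70 to 1.02, Cd274 from -0.53 to -0.42 and Icosl from -0.86 to -0.75. No paired analysis was possible because there was 1 library with vehicle and 1 with clodronate, and for the same reason no library could be left out. The estimated depth limits Pdcd1lg2, with 58 and 33 reads, more than any other member.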
